A study of Mus musculus with 556 samples.

Results

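Mouse chromosome 9 was followed along its length as 1216 bins of 100 kb, which are all the chromosome 9 bins that hold a value in the deposited table of observed over expected reads. The chromosome has 1246 bins in that table, and the other 30 hold no value. Over all 19 autosomes 24022 of 24639 bins hold one. The bins run from position 3000001 to 124595109 on the mm10 genome build. The chromosome was picked with its differences between paternal and maternal pronuclei already known, so those differences are given here as descriptions with no p-value.

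The data are single-cell DamID profiles, in which the bacterial adenine methyltransferase Dam, fused to lamin B1, marks DNA that touches the nuclear lamina. Dam alone, which marks accessible DNA, is the control for that construct. The unit is the ratio of observed to expected reads (OE) per bin and cell, and a value of 1 is the expected level. The sources used here do not say how the expected number was derived.

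Pronuclei were cut out of fertilised eggs at pronuclear stage 5 in the presence of cytochalasin B, and were told apart by their size and their position relative to the second polar body. There were 15 paternal and 10 maternal pronuclei with no Kdm5b, 19 paternal and 19 maternal pronuclei with wild-type Kdm5b, and 6 paternal and 13 maternal pronuclei with mutant Kdm5b. All 82 carry the strain label C57BL/6, and per the labels' protocols embryos came from F1 (CBAxC57BL/6J) females aged 5 to 8 weeks. These 2 statements differ, and the strain label of the pronuclei names no male. A strain difference between the parents, if there was one, could not be told apart from parent of origin. All 82 were made with Dam-lamin B1 that carries an auxin-inducible degron, injected as mRNA with mRNAs for TIR1, the plant protein that mediates the degradation, and membrane-EGFP. Kdm5b mRNA was injected at 2 µg/µl together with 5 ng/µl Dam-lamin B1 mRNA at 18 h after hCG, auxin was removed at 21 h, and methylation ran for 6 to 8 h. The labels tie no dose to pronuclei with no Kdm5b and do not say what the mutation changes. Each pronucleus is counted as 1 fertilised egg, although a paternal and a maternal pronucleus may come from the same egg and eggs may share a mother.

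The stages used beside them were Dam-lamin B1 profiles of 56 oocytes, 19 zygotes, 47 blastomeres at the 2-cell and 41 at the 8-cell stage, and 10 embryonic stem (ES) cells. Dam alone was profiled in 43 oocytes, 46 zygotes, and 45 and 4 blastomeres of those stages. By their strain labels oocytes are C57BL/6, zygotes and embryos are from C57BL/6 females and CAST/EiJ males, and ES cells are from a 129/Sv female and a CAST/EiJ male. Oocytes and zygotes received 5 ng/µl of Dam-lamin B1 mRNA or 20 ng/µl of Dam mRNA. Embryos profiled at the 2-cell stage received 10 or 40 ng/µl of them, and those profiled at the 8-cell stage 20 or 40 ng/µl. Stage, cross and dose cannot be told apart, cells of an embryo are not independent, and no test between stages was made. No pronuclei with Dam alone were used, so a parental difference in Dam-lamin B1 signal could not be set against accessibility in the same pronuclei.

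The lamina is a protein meshwork under the inner nuclear membrane, and the genomic stretches that touch it, lamina-associated domains (LADs), are mostly gene-poor and weakly transcribed. After fertilisation the paternal genome arrives packed with protamines and is rebuilt into chromatin in its own pronucleus, while the maternal genome enters with the chromatin of the oocyte. Kdm5b is a demethylase of lysine 4 of histone H3, a mark of promoters that is spread over broad domains in oocytes.

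Dam methylates the adenine of GATC and the reads start at such sites, so the letters of a promoter show where this assay can and cannot read. The 6 sequences are the 250 bases before the annotated start of genes that overlap windows described here for their parental difference, and GATC is in capitals. The start of Yap1 itself lies 1 window further on, at chr9:8000001-9000000, where OE was 0.786 ± 0.612 in paternal and 1.33 ± 0.710 in maternal pronuclei with no Kdm5b. They are RefSeq sequences of build GRCm38.p6, 5′ to 3′ on the strand of the gene. Gria4 (minus strand, chr9:4796235-4796484) encodes a subunit of AMPA glutamate receptors, Pdgfd (plus strand, chr9:6168236-6168485) a platelet-derived growth factor, and Yap1 (minus strand, chr9:8004597-8004846) the transcriptional effector of the Hippo pathway. Ccr2 (plus strand, chr9:124101933-124102182) encodes a chemokine receptor, Htr1b (minus strand, chr9:81633833-81634082) a serotonin receptor, and Arpp21 (minus strand, chr9:112233723-112233972) a phosphoprotein regulated by cyclic AMP.
Gria4: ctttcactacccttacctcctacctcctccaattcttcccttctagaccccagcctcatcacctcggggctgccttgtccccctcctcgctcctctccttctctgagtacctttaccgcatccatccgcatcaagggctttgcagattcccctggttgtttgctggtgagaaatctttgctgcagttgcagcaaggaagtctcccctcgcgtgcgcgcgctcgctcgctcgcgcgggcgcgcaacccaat
Pdgfd: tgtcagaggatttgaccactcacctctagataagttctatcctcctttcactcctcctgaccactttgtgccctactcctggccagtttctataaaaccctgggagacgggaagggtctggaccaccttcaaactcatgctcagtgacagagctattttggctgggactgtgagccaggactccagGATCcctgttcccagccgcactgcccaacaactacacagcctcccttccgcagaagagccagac
Yap1: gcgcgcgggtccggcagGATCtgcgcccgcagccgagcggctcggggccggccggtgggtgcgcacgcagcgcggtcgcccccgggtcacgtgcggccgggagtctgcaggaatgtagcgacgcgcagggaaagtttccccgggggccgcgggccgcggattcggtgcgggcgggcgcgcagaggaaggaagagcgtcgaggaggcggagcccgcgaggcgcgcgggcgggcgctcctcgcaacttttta
Ccr2: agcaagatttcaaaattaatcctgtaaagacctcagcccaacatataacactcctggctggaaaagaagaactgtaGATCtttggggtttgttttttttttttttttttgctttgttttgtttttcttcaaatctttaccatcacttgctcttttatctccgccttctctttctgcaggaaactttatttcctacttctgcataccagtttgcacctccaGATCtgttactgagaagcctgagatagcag
Htr1b: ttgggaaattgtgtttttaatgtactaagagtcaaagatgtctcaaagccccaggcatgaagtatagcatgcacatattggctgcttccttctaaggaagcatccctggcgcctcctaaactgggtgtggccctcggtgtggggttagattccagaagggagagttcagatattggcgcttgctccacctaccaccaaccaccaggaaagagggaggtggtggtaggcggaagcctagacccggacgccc
Arpp21: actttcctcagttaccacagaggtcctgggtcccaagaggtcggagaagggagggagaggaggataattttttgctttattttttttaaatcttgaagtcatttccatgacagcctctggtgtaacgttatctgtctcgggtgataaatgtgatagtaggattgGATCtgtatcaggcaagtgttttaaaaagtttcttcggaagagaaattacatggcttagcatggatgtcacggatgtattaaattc
Ccr2 held 2 GATC sites, Pdgfd, Yap1 and Arpp21 held 1 each, and Gria4 and Htr1b held 0. The motif GATC reads the same on both strands, and it was present in 793 of 1917 chromosome 9 promoters (41.4%) and in 13763 of 32851 promoters over all chromosomes (41.9%). A match is only a description of the letters, and the values that follow are of bins and windows far larger than a promoter.

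Of the 1216 bins, 637 (52.4%) were covered at least 50% by LADs of both the inner cell mass (ICM) and the trophectoderm (TE) in the authors' 2 deposited lists, and 412 (33.9%) by neither. Over all autosomes 12082 bins (50.3%) were in both lists and 7688 in neither. Chromosome 9 bins held 0.988 genes each, against 0.855 for all autosomal bins. Bins in both lists held 0.567 genes and bins in neither 1.59.

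Depth, recovered as whole reads from the steps of the OE values, ran between 31428 and 385046 reads in paternal pronuclei (median 108224.5) and between 32491 and 288528 in maternal pronuclei (median 70927.5). Group medians were 144947 and 83395.5 reads for paternal and maternal pronuclei with no Kdm5b, 104944 and 74900 with wild-type Kdm5b, and 103839 and 52535 with mutant Kdm5b. On chromosome 9 the mean share of bins with 0 reads was 17.8% in paternal and 24.5% in maternal pronuclei with no Kdm5b, 8.5% and 25.6% with wild-type Kdm5b, and 12.0% and 36.7% with mutant Kdm5b. Paternal pronuclei were thus deeper by median and had fewer empty bins on average in every set. Counts at equal reads are given beside the main ones. Equal reads bring every cell down to the shallowest of its comparison, so a call lost there does not measure the part of depth. The part of depth in the parental differences was not tested. A pair of paternal pronuclei (replicates 6 and 9) and 1 maternal pronucleus (replicate 2) with no Kdm5b had over 50% of all autosomal bins empty. In the mutant set, 3 maternal pronuclei (replicates 2, 6 and 7) had a mean OE under 0.6 over chromosome 9. The counts of called windows in the parental contrasts are given with and without these cells.

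Without Kdm5b, the mean OE over chromosome 9 was 0.911 ± 0.106 in paternal pronuclei (SD, n = 15; lowest 0.745, median 0.954, highest 1.08), against 1.06 ± 0.120 in maternal pronuclei (n = 10; lowest 0.799, median 1.10, highest 1.19). With wild-type Kdm5b it was 1.05 ± 0.073 in paternal pronuclei (n = 19) and 0.934 ± 0.133 in maternal pronuclei (n = 19). With mutant Kdm5b it was 0.994 ± 0.093 in paternal pronuclei (n = 6) and 0.866 ± 0.258 in maternal pronuclei (n = 13). The paternal mean was the lower one with no Kdm5b and the higher one in both Kdm5b sets, and the ranges of paternal and maternal cells overlapped in each set. The maternal mean of the mutant set includes the pronuclei of low signal, replicates 2, 6 and 7, at 0.49, 0.46 and 0.54. That mean is not given here without them, so nothing is read from the order of the parental means with mutant Kdm5b.

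The contrast between LADs and the rest of the chromosome was the log2 ratio per cell of mean OE in bins of both lists over bins of neither. With no Kdm5b it averaged 0.45 ± 0.47 in paternal and 0.54 ± 0.30 in maternal pronuclei (SD), with medians of 0.52 and 0.61. The paternal replicates 6 and 9, with over 50% of all autosomal bins empty, stood at -0.38 and -0.72. The other paternal pronuclei ran between 0.21 and 1.09, and the mostly empty maternal replicate 2 stood at 0.79. Means without the mostly empty cells are not given here, so nothing is read from the order of the parental means. The contrast averaged -0.12 ± 0.18 in paternal and 0.11 ± 0.47 in maternal pronuclei with wild-type Kdm5b. With mutant Kdm5b it averaged 0.36 ± 0.23 and 0.44 ± 0.42. Paternal pronuclei with wild-type Kdm5b ran between -0.51 and 0.13, so that LAD and non-LAD bins of chromosome 9 had about the same signal in them. Among the 19 autosomes, chromosome 9 ranked 19 from the highest in this contrast in paternal pronuclei with no Kdm5b, where the others ran between 0.60 and 0.94. It also ranked 19 in paternal pronuclei with mutant Kdm5b, where the others ran between 0.39 and 0.69. No test was made of these ranks, and the rank with no Kdm5b is not given without the paternal replicates 6 and 9.

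**Figure D1:**
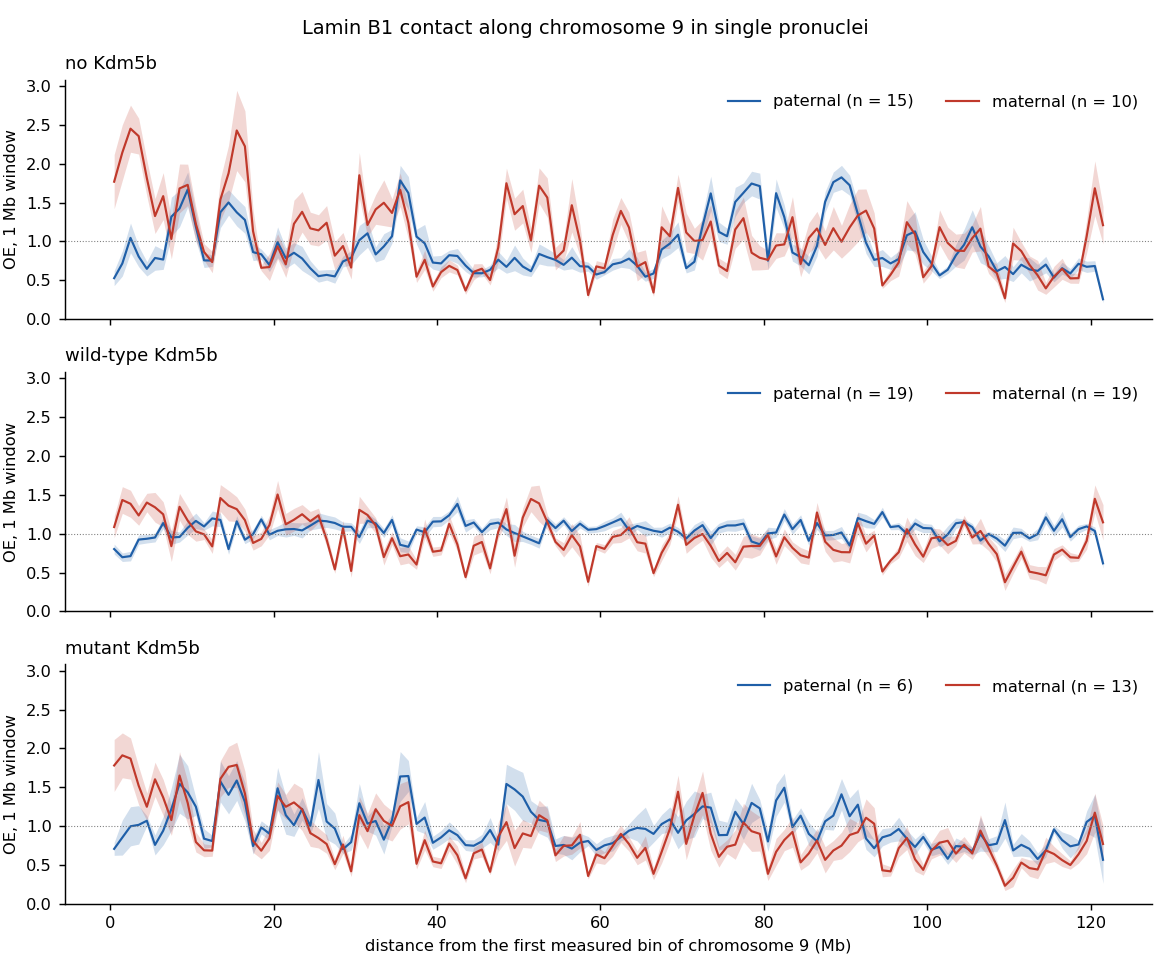
Mean OE in 1 Mb windows of chromosome 9 (y axis) against the distance from its first measured bin in Mb (x axis), in paternal (blue) and maternal (red) pronuclei with no, wild-type and mutant Kdm5b. Lines are means over pronuclei and bands are the standard error, and the dotted line is an OE of 1. With no Kdm5b the maternal line stands highest near the centromere end, and the paternal line with wild-type Kdm5b stays close to 1 over most of the chromosome, with a standard deviation over windows of 0.120.

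Averaged over pronuclei, the profile over the 122 windows of 1 Mb was uneven in both parental genomes with no Kdm5b, with a standard deviation over windows of 0.342 OE in paternal and 0.461 OE in maternal pronuclei. With wild-type Kdm5b it was 0.120 in paternal and 0.263 in maternal pronuclei, and with mutant Kdm5b 0.259 and 0.360. Over the windows of all autosomes the same values were 0.407 and 0.420 with no Kdm5b, 0.136 and 0.294 with wild-type Kdm5b, and 0.308 and 0.414 with mutant Kdm5b. The flattest profile of the 6 groups was that of paternal pronuclei with wild-type Kdm5b, on chromosome 9 and over all autosomes. A mean profile also varies with the number and depth of its cells. The groups hold 6 to 19 pronuclei of unlike depth, and the part of this in the values was not tested. In that group 86 of 122 windows had a mean OE of 1 or more, against 42 in maternal pronuclei with wild-type Kdm5b. The counts were 34 in paternal and 64 in maternal pronuclei with no Kdm5b, and 52 and 34 with mutant Kdm5b.

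With no Kdm5b large parental differences lay at both ends of chromosome 9. At the centromere end the first 70 bins, up to position 10000000, were all in both LAD lists. Mean OE there was 0.756 ± 0.384 in paternal pronuclei (SD, n = 15; lowest 0.181, median 0.696, highest 1.53), against 1.92 ± 0.605 in maternal pronuclei (n = 10; lowest 0.977, median 1.85, highest 3.00). The paternal cells lay low and the maternal cells high, and the ranges overlapped between 0.977 and 1.53. In the wild-type Kdm5b set the values were 0.880 ± 0.194 in paternal and 1.31 ± 0.528 in maternal pronuclei. With mutant Kdm5b they were 0.906 ± 0.208 in paternal and 1.61 ± 0.695 in maternal pronuclei. Maternal signal was the higher of the pair at this end in all 3 sets.

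All differences by window below are of log2(mean OE + 0.25), paternal minus maternal, with the standard error of limma's fit over all autosomal windows. A window or bin was called at a Benjamini-Hochberg adjusted p under 0.05 in that fit. For paternal minus maternal pronuclei a call only sorts windows and bins for naming and counting, and supports nothing, since the chromosome was picked on that contrast. With no Kdm5b the run of lower windows from 3000001 to 8000000 had differences between -1.43 and -1.19. The lowest was the window with Pdgfd and with Dync2h1, the motor chain of ciliary dynein, at chr9:6000001-7000000. Its OE was 0.805 ± 0.512 in paternal pronuclei (lowest 0, median 0.577, highest 1.68), against 2.35 ± 0.729 in maternal pronuclei (lowest 1.15, median 2.33, highest 3.80), a difference of -1.43 ± 0.29 (SE). All 15 paternal pronuclei lay below the maternal median, though the ranges overlapped. The Gria4 window at chr9:4000001-5000000 had an OE of 0.715 ± 0.627 in paternal and 2.14 ± 1.13 in maternal pronuclei, a difference of -1.37 ± 0.30.

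The window of Gucy1a2, a subunit of soluble guanylate cyclase, at chr9:3000001-4000000 had an OE of 0.526 ± 0.373 in paternal and 1.77 ± 1.10 in maternal pronuclei (difference -1.29 ± 0.27). The window of Yap1 and the enamel protease gene Mmp20 at chr9:7000001-8000000 had 0.647 ± 0.358 and 1.81 ± 0.731 (difference -1.24 ± 0.25). In both, 0 of 15 paternal pronuclei reached the maternal median. Given wild-type Kdm5b, the Gria4 window was again lower, with 0.698 ± 0.239 in paternal and 1.43 ± 0.749 in maternal pronuclei (difference -0.72 ± 0.18). The window of the inflammatory caspase genes Casp1, Casp4 and Casp12 at chr9:5000001-6000000 had 0.712 ± 0.268 in paternal and 1.39 ± 0.759 in maternal pronuclei (difference -0.60 ± 0.20). With mutant Kdm5b no window at this end was called, and the Gria4 window had 0.853 ± 0.553 in paternal and 1.91 ± 1.04 in maternal pronuclei (difference -0.92 ± 0.38). Without the 3 maternal pronuclei of low chromosome 9 signal that difference was -1.27.

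The far end of the chromosome was lower in paternal pronuclei as well with no Kdm5b. The window at chr9:124000001-124595109, which holds the chemokine receptor gene Ccr3, had an OE of 0.254 ± 0.180 in paternal pronuclei (lowest 0, median 0.267, highest 0.674), against 1.21 ± 0.767 in maternal pronuclei (lowest 0.091, median 1.24, highest 2.33). The difference was -1.37 ± 0.26, and 0 of 15 paternal pronuclei reached the maternal median. With wild-type Kdm5b the OE was 0.619 ± 0.271 in paternal and 1.15 ± 0.993 in maternal pronuclei, and with mutant Kdm5b 0.567 ± 0.742 and 0.771 ± 0.853. Neither of these was called. The maternal spread in the wild-type set, with cells between 0.113 and 3.54, was wider than the paternal one.

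**Figure D2:**
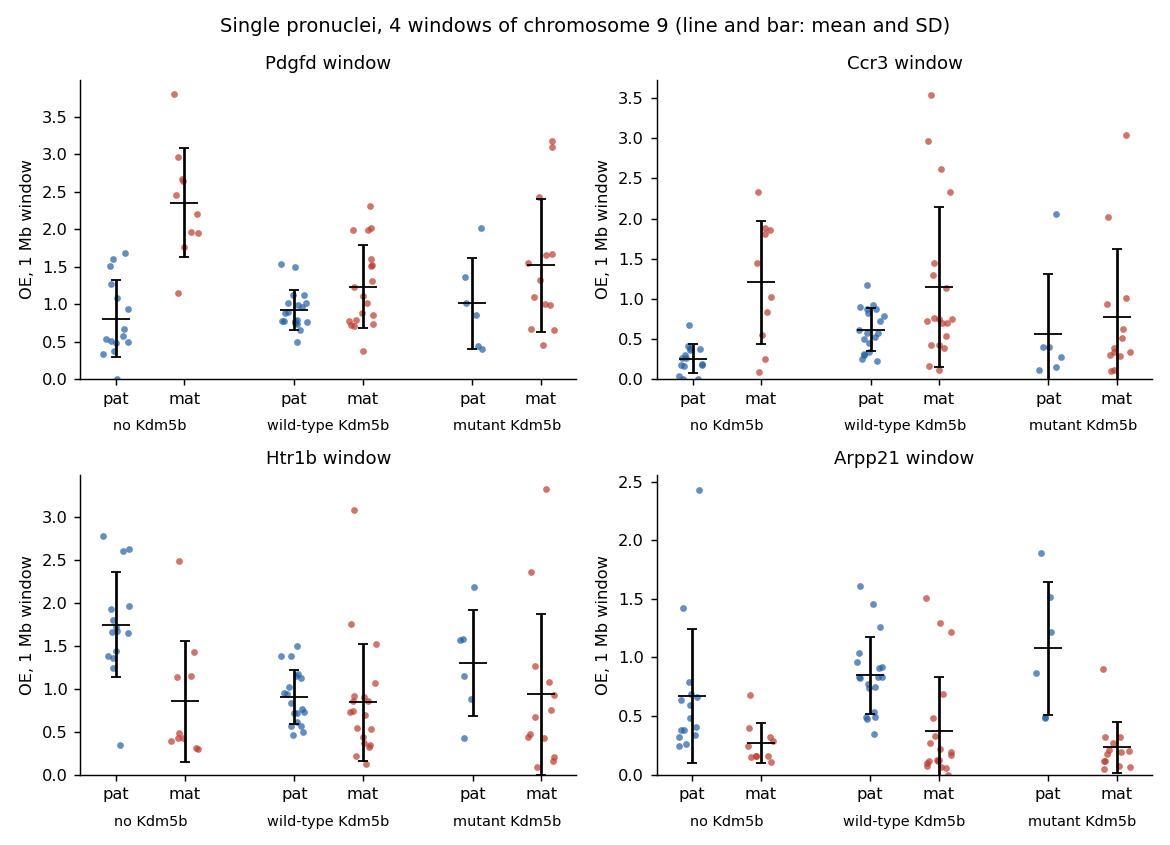
OE of 4 windows of 1 Mb (y axis) in each pronucleus, paternal (pat, blue) and maternal (mat, red), with no, wild-type and mutant Kdm5b; each point is 1 pronucleus, the line is the mean and the bar the SD. With no Kdm5b the paternal cells are lower in the Pdgfd and Ccr3 windows and higher in the Htr1b and Arpp21 windows, with overlap in every panel.

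The 2 ends were set beside those of the other autosomes. The bounds used match the runs of windows called lower on chromosome 9 itself with no Kdm5b. This choice favours a low place of chromosome 9, so nothing is read from its place. In bins up to position 8000000, mean OE with no Kdm5b was 0.748 in paternal and 2.11 in maternal pronuclei, a log2 ratio of -1.49, and the other 18 autosomes ran between -0.80 and 1.53 with a median of -0.38. In the last 2 windows it was 0.522 in paternal and 1.51 in maternal pronuclei, a log2 ratio of -1.53, and the others ran between -1.31 and 0.47 with a median of -0.40. With no Kdm5b the log2 ratio was below 0 on 16 of 19 autosomes at the start and on 15 of 19 at the end. Lower paternal signal there was thus not limited to chromosome 9, which had the lowest value at both. With wild-type Kdm5b the ratio was below 0 on 12 autosomes at the start and 15 at the end, and with mutant Kdm5b on 17 and 12. Stretches between the ends were not set beside these, so nothing is read as particular to ends.

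With wild-type Kdm5b chromosome 9 was also lowest at the start, with 0.815 in paternal and 1.31 in maternal pronuclei (log2 ratio -0.68, the others between -0.64 and 1.39). With mutant Kdm5b the start had 0.929 and 1.67 (log2 ratio -0.84), and chromosome 9 was in place 5 from the lowest. At the last 2 windows the mutant set had 0.920 in paternal and 1.02 in maternal pronuclei (log2 ratio -0.15), close to the median of the other autosomes. No test was made of these places.

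**Figure D3:**
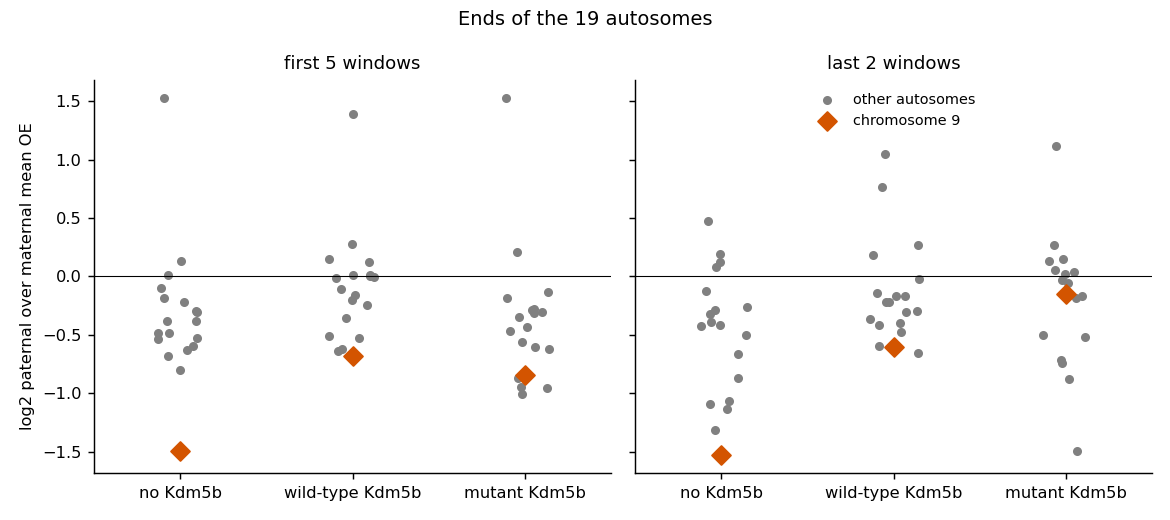
Log2 ratio of paternal over maternal mean OE (y axis) at the first 5 windows (bins up to position 8000000, left) and the last 2 windows (right) of each of the 19 autosomes, with no, wild-type and mutant Kdm5b (x axis); the diamond is chromosome 9 and grey points are the other autosomes. With no Kdm5b the diamond is lowest in both panels, at -1.49 and -1.53, where the bounds match windows called lower on chromosome 9 itself.

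Between the ends, windows of both directions stood side by side with no Kdm5b: 6 were called higher in paternal pronuclei and 4 lower. The lower ones, described here after their values were seen, included the window of Arhgap20 and the salt-inducible kinase gene Sik2 at chr9:51000001-52000000. It had an OE of 0.672 ± 0.318 in paternal pronuclei (lowest 0.062, median 0.646, highest 1.34), against 1.75 ± 0.618 in maternal pronuclei (lowest 0.630, median 1.80, highest 2.62), a difference of -1.13 ± 0.25. The paternal cells lay low, and the ranges overlapped. The window of the RNA helicase gene Ddx10 at chr9:53000001-54000000 had 0.676 ± 0.421 in paternal and 1.45 ± 0.687 in maternal pronuclei (difference -0.84 ± 0.25). A pair of windows from 28000001 to 30000000, which hold the neuronal adhesion genes Opcml and Ntm, had differences of -0.73 ± 0.22 and -0.80 ± 0.23. Over the segment from 50000001 to 60000000 mean OE was 0.740 ± 0.228 in paternal and 1.29 ± 0.389 in maternal pronuclei.

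Other stretches had the higher signal in paternal pronuclei. From position 80000001 to 90000000 mean OE with no Kdm5b was 1.21 ± 0.34 in paternal pronuclei, against 0.984 ± 0.383 in maternal pronuclei. The window of Htr1b and Mei4, a gene for a protein of meiotic DNA break formation, at chr9:81000001-82000000 had an OE of 1.74 ± 0.613 in paternal pronuclei (lowest 0.348, median 1.67, highest 2.78), against 0.854 ± 0.706 in maternal pronuclei (lowest 0.30, median 0.456, highest 2.49). The difference was 0.99 ± 0.29, and 14 of 15 paternal pronuclei lay above the maternal median. The next window, at chr9:82000001-83000000 with Phip, had 1.71 ± 0.647 in paternal and 0.789 ± 0.493 in maternal pronuclei (difference 0.96 ± 0.28). All bins of these 2 windows were in both LAD lists.

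The Htr1b window was called in neither of the sets with Kdm5b. With wild-type Kdm5b the Htr1b window had 0.900 ± 0.316 in paternal and 0.842 ± 0.683 in maternal pronuclei, and with mutant Kdm5b 1.30 ± 0.619 and 0.935 ± 0.937. The paternal level in this window was highest with no Kdm5b and lowest with wild-type Kdm5b, while the maternal means lay between 0.842 and 0.935 in all 3 sets. The dose and timing of injection in pronuclei with no Kdm5b are not tied to them by the labels and cannot be told apart from Kdm5b, so the sets with and without Kdm5b were not tested against each other.

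A second kind of window had low signal in maternal pronuclei of every set. The window of Tle3, a Groucho-type corepressor, at chr9:61000001-62000000 had an OE of 0.675 ± 0.225 in paternal and 0.308 ± 0.133 in maternal pronuclei with no Kdm5b (difference 0.73 ± 0.17). It had 1.05 ± 0.188 in paternal and 0.381 ± 0.25 in maternal pronuclei with wild-type Kdm5b (difference 1.11 ± 0.14), and 0.809 ± 0.143 and 0.358 ± 0.137 with mutant Kdm5b (difference 0.83). Every paternal pronucleus with no or wild-type Kdm5b lay above the maternal median of its set. The Arpp21 window at chr9:112000001-113000000 had 0.670 ± 0.570 in paternal and 0.267 ± 0.172 in maternal pronuclei with no Kdm5b (difference 0.72 ± 0.22). It had 0.847 ± 0.328 and 0.375 ± 0.461 with wild-type Kdm5b (difference 1.03 ± 0.21), and 1.08 ± 0.569 and 0.232 ± 0.221 with mutant Kdm5b (difference 1.44 ± 0.27). Maternal means of both windows were under 0.4 OE in all 3 sets, and paternal means were under 1 with no Kdm5b.

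The window of Sik3, a salt-inducible kinase, at chr9:46000001-47000000 was another of this kind, with 0.689 ± 0.303 in paternal and 0.367 ± 0.152 in maternal pronuclei with no Kdm5b, and 1.10 ± 0.345 and 0.441 ± 0.168 with wild-type Kdm5b (difference 0.96 ± 0.13). The window of Clstn2, a calsyntenin of synapses, at chr9:97000001-98000000 had 1.28 ± 0.274 in paternal and 0.514 ± 0.210 in maternal pronuclei with wild-type Kdm5b (difference 1.02 ± 0.12). The widest difference in that set was in the window of Rbms3, an RNA-binding protein gene, at chr9:117000001-118000000, with 1.21 ± 0.349 in paternal pronuclei (lowest 0.709, median 1.11, highest 1.80), against 0.465 ± 0.487 in maternal pronuclei (lowest 0.075, median 0.348, highest 2.30). The difference was 1.18 ± 0.17, and 19 of 19 paternal pronuclei lay above the maternal median. With mutant Kdm5b the Rbms3 window had 0.687 ± 0.204 in paternal and 0.688 ± 0.613 in maternal pronuclei, so its parental means were alike there. This window is part of a run of 10 windows from 112000001 to 122000000 that were higher in paternal pronuclei with wild-type Kdm5b, by 0.36 to 1.18. From 110000001 to 120000000 mean OE was 1.02 ± 0.144 in paternal and 0.632 ± 0.211 in maternal pronuclei of that set, against 0.652 ± 0.343 and 0.623 ± 0.196 with no Kdm5b.

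**Figure D4:**
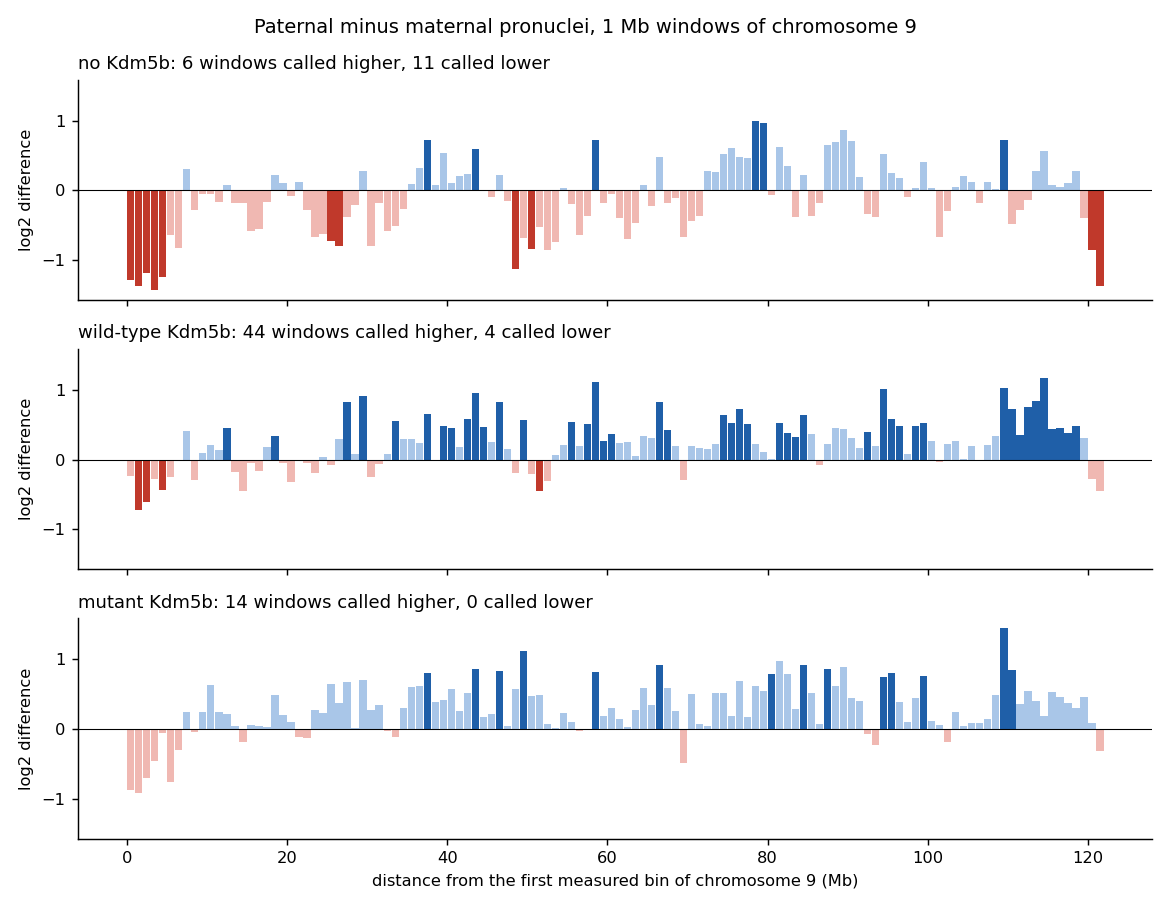
Log2 difference of mean OE, paternal minus maternal (y axis), for the 122 windows of 1 Mb along chromosome 9 (x axis, distance from the first measured bin in Mb), with no, wild-type and mutant Kdm5b. Full colours are windows called at an adjusted p under 0.05 (blue higher in paternal, red lower), pale colours the rest; with no Kdm5b red windows stand at both ends and 4 more between them, and the longest blue run, of 10 windows, is with wild-type Kdm5b.

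Counted over the chromosome with no Kdm5b, 6 windows were called higher and 11 lower in paternal pronuclei of 122, where 8.7% of all autosomal windows were called, 7.28% higher and 1.41% lower. Of 1215 bins tested, 8 were called higher and 22 lower, where 2.1% of all autosomal bins were called, 1.83% higher and 0.276% lower. With wild-type Kdm5b 44 windows were called higher and 4 lower, against 34.6% of all windows, 28.7% and 5.91% by direction. In that set 208 bins were higher and 9 lower, against 15.7% of all bins, 14.5% and 1.22% by direction. With mutant Kdm5b 14 windows were called higher and 0 lower, against 8.57% of all windows, 8.49% and 0.0832% by direction, and 9 bins higher and 0 lower, against 0.853% and 0% of all bins. Since the chromosome was picked on these contrasts, nothing is read from the counts.

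The counts depend on the scale and on the cells. The median window of all autosomes was itself higher in paternal pronuclei by 0.10 with no Kdm5b, 0.16 with wild-type Kdm5b and 0.24 with mutant Kdm5b, and the median chromosome 9 window stood at -0.10, 0.24 and 0.27. After scaling each cell to its bins in neither LAD list, the wild-type set had 19 windows higher and 14 lower in place of 44 and 4. At equal reads per cell 3 windows were called higher and 10 lower with no Kdm5b, 28 higher and 4 lower with wild-type Kdm5b, and 2 higher and 0 lower with mutant Kdm5b. The bins called were then 0 with no Kdm5b, 55 with wild-type and 0 with mutant Kdm5b. Without the 3 pronuclei with over 50% of all autosomal bins empty, the set with no Kdm5b had 10 windows higher and 13 lower, and without the 3 maternal pronuclei of low signal the mutant set had 5 higher and 2 lower.

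The windows were compared between sets, which share no pronuclei. Of the 11 windows lower with no Kdm5b, 3 were among the 4 lower with wild-type Kdm5b (27.3% and 75% of each list). Of the 6 windows higher with no Kdm5b, 4 were among the 44 higher with wild-type Kdm5b (66.7% and 9.09%) and 4 among the 14 higher with mutant Kdm5b (66.7% and 28.6%). Across the 122 windows the parental differences correlated at r = 0.637 between no and wild-type Kdm5b, 0.607 between no and mutant Kdm5b, and 0.651 between wild-type and mutant Kdm5b. These are descriptions across neighbouring windows, which are not independent and share the base composition and mappability of the chromosome.

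By LAD class with no Kdm5b, the median difference was -0.05 over 636 bins of both lists, with 8 bins higher and 20 lower, and 0.11 over 412 bins of neither, with 0 higher and 2 lower. With wild-type Kdm5b the medians were 0.32 in both and 0.43 in neither, with 97 higher and 8 lower in both and 83 higher and 1 lower in neither. These counts come from the contrasts the chromosome was picked on, and nothing is read from them.

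Among single bins with no Kdm5b the lowest were a Dync2h1 bin at chr9:7000001-7100000 (-2.14 ± 0.49), a Gria4 bin at chr9:4600001-4700000 (-2.11 ± 0.49) and the bin of Arhgap20, a GTPase-activating protein gene, at chr9:51800001-51900000 (-2.10 ± 0.49). The bin that holds Ccr2, at chr9:124100001-124200000, stood at -1.96 ± 0.43. The highest was a bin with no protein-coding gene at chr9:94000001-94100000 (2.12 ± 0.49). With wild-type Kdm5b the highest that hold a gene were a pair of Clstn2 bins at chr9:97500001-97700000 (2.09 ± 0.33 each). With mutant Kdm5b the highest was the bin of Plod2, a lysyl hydroxylase gene, at chr9:92600001-92700000 (2.51 ± 0.62), and only the Adamts15 bin at chr9:30800001-30900000 had paternal and maternal cells that did not overlap among the bins named.

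Gene groups of the chromosome were followed by the bins that overlap them, and their counts in the parental contrasts are likewise only descriptions. The 14 long neuronal genes cover 89 bins, and with no Kdm5b 0 of these were called higher and 7 lower, where 1.83% and 0.276% of all bins were (median difference -0.15, against 0.19 over all bins). Over the whole Gria4 gene, OE was 0.711 ± 0.778 in paternal and 2.18 ± 1.24 in maternal pronuclei, and over the adhesion gene Opcml 0.546 ± 0.296 and 1.17 ± 0.630. Ntm, a neighbouring gene of the same adhesion family, had 0.580 ± 0.239 in paternal and 1.19 ± 0.660 in maternal pronuclei. With wild-type Kdm5b the list had 20 bins higher and 1 lower, where 14.5% and 1.22% of all bins were. In that set Clstn2 had 1.29 ± 0.248 in paternal and 0.201 ± 0.135 in maternal pronuclei. In the same wild-type set the Gria4 window was lower in paternal pronuclei (difference -0.72). Gria4 and Clstn2 thus stood on opposite sides of the same list with wild-type Kdm5b. With no Kdm5b the Clstn2 window at chr9:97000001-98000000 also had the higher mean in paternal pronuclei. It had 0.786 ± 0.421 in paternal and 0.432 ± 0.125 in maternal pronuclei and was not called, so the list was not uniform in that set either.

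The 10 matrix metalloproteinase genes, which encode proteases of the extracellular matrix, share 5 bins, all in both LAD lists. Of these, 0 were called in any of the 3 parental contrasts. With no, wild-type and mutant Kdm5b 2.1%, 15.7% and 0.853% of all bins were called. OE of the 5 bins averaged 0.699 ± 0.402 in paternal and 1.93 ± 0.822 in maternal pronuclei with no Kdm5b, with a median difference of -1.43. The 12 chemokine receptor genes lie in 9 bins, of which 0 were called higher and 3 lower with no Kdm5b, against 1.83% and 0.276% of all bins, with an OE of 0.619 ± 0.223 in paternal and 1.35 ± 0.699 in maternal pronuclei. Genes of both groups lie in clusters, so their bins share neighbours and are not independent. The bins of 11 housekeeping genes, none of them in both LAD lists, had 0.741 ± 0.206 in paternal and 0.650 ± 0.228 in maternal pronuclei with no Kdm5b. In that set 0 of these 12 bins were called, against 2.1% of all bins.

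The 13 developmental transcription factor genes lie in 22 bins, of which 0 were called with no Kdm5b, against 2.1% of all bins, and 7 were higher with wild-type Kdm5b, against 14.5%. Fli1, an ETS factor of blood and endothelial cells, had 1.15 ± 0.428 in paternal and 0.306 ± 0.491 in maternal pronuclei with wild-type Kdm5b, and 0.825 ± 0.815 and 0.190 ± 0.260 with no Kdm5b. The 179 olfactory receptor genes lie in 43 bins, 40 of them in both LAD lists, with an OE of 1.49 ± 0.621 in paternal and 1.73 ± 0.643 in maternal pronuclei with no Kdm5b and 1 bin called higher, against 1.83% of all bins. Rasgrf1, a paternally expressed imprinted gene, spans 2 bins, with 0.781 ± 0.733 in paternal and 0.434 ± 0.348 in maternal pronuclei with no Kdm5b. Neither bin was called in any contrast of pronuclei, where at most 15.7% of all bins were. The 7 oocyte and maternal-effect genes lie in 4 bins, with an OE of 0.763 ± 0.320 in paternal and 0.679 ± 0.277 in maternal pronuclei with no Kdm5b. In that set 0 of the 4 bins were called, against 2.1% of all bins.

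Wild-type and mutant Kdm5b were compared within each parent. In paternal pronuclei 27 of 122 windows were called higher and 3 lower with wild-type Kdm5b, against 31.8% of all autosomal windows, 17.3% and 14.5% by direction. The split turned with the scaling: scaled to bins in neither LAD list, 0 windows were higher and 25 lower. Each fit of 2 groups takes 1 estimate of the spread for both, here from 19 and 6 paternal pronuclei. In limma's fit over all 6 groups of pronuclei, which likewise share 1 estimate, 0 windows were called. The median window of all autosomes was higher with wild-type Kdm5b by 0.11, and at 100 kb 0 of 1215 bins were called by limma (149 at an unadjusted p under 0.05), against 0.0167% of all bins.

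The 3 lower windows kept their call under the scaling, with differences of -1.15, -1.07 and -0.92, and lost it in the fit over 6 groups, with limma's adjusted p between 0.298 and 0.323. The olfactory receptor window at chr9:39000001-40000000 had an OE of 0.832 ± 0.321 in paternal pronuclei with wild-type Kdm5b (lowest 0.293, median 0.790, highest 1.38), against 1.65 ± 0.489 with mutant Kdm5b (lowest 0.852, median 1.64, highest 2.25). The difference was -0.83 ± 0.19 (limma, adjusted p = 0.00516). The window beside it, at chr9:38000001-39000000, had 0.858 ± 0.392 with wild-type and 1.64 ± 0.786 with mutant Kdm5b (difference -0.75 ± 0.24, limma adjusted p = 0.0206, or 0.0990 at equal reads). The window at chr9:17000001-18000000, with no annotated protein-coding gene, had 0.802 ± 0.287 and 1.40 ± 0.602 (difference -0.61 ± 0.20, limma adjusted p = 0.0234). In all 3, none of the 19 pronuclei with wild-type Kdm5b reached the median of those with mutant Kdm5b. The SD of OE was larger in the 6 pronuclei with mutant Kdm5b in all 3. The p-values assume an equal spread of the log2 values in both groups, which was not tested. Over the 43 olfactory receptor bins the median difference was -0.69, against 0.08 over all bins, with 0 bins called, against 0.0167% of all bins. In maternal pronuclei the window from 39000001 had 0.733 ± 0.481 with wild-type and 1.31 ± 1.01 with mutant Kdm5b. The window from 38000001 had 0.711 ± 0.485 and 1.26 ± 1.05 in them. Both maternal differences were -0.44 ± 0.30, and neither was called.

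Of the windows higher with wild-type Kdm5b in paternal pronuclei, the Rbms3 window had the largest difference, with 1.21 ± 0.349, against 0.687 ± 0.204 with mutant Kdm5b (lowest 0.414, median 0.790, highest 0.864). The difference was 0.63 ± 0.16 (limma, adjusted p = 0.0069), and after the scaling it was 0.34 and no longer called. The window at chr9:58000001-59000000, which holds the netrin receptor gene Neo1, had 1.17 ± 0.222 and 0.758 ± 0.30 (difference 0.52 ± 0.14, limma adjusted p = 0.00899), or 0.23 after the scaling. The median difference over bins was 0.00 in both LAD lists and 0.38 in neither.

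In maternal pronuclei 1 of 122 windows was called, where 0.375% of all windows were, 0.333% higher and 0.0416% lower. It lies at chr9:83000001-84000000 and holds Bckdhb, of branched-chain amino acid breakdown, and Ttk, a kinase of the spindle checkpoint. OE was 0.983 ± 0.349 with wild-type Kdm5b (lowest 0.581, median 0.932, highest 1.80), against 0.386 ± 0.308 with mutant Kdm5b (lowest 0.072, median 0.397, highest 1.29), a difference of 1.02 ± 0.18 (limma, adjusted p = 0.00269). All 19 pronuclei with wild-type Kdm5b lay above the median of the mutant set, the call stood without the 3 maternal pronuclei of low signal, and it was lost at equal reads (limma, adjusted p = 0.170). At 100 kb 0 of the chromosome 9 bins were called by limma (116 at an unadjusted p under 0.05), against 0% of all bins.

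Whether wild-type against mutant Kdm5b differed between the parents was tested as an interaction. On chromosome 9 0 windows and 0 bins were called by limma (6 windows and 64 bins at an unadjusted p under 0.05), against 0% of all windows and 0.00418% of all bins. The lowest adjusted p over windows was 0.305, at the Rbms3 window. The differences between the parental genomes in their response to the 2 forms of Kdm5b were therefore not detectable window by window at this number of cells.

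Lamin B1 contact in whole zygotes was set against Dam alone as the control of the method. Of 122 windows 24 were called higher and 68 lower with Dam-lamin B1, against 81.9% of all autosomal windows, 32.7% and 49.2% by direction. Of the bins 179 were higher and 556 lower, against 60.1% of all bins, 22.1% and 37.9% by direction. The median window of all autosomes lay at -0.23. Scaled to bins in neither list the split of windows was 58 higher and 11 lower and that of bins 306 and 160, so the direction of moderate differences depends on the scale. Of the 636 bins of both LAD lists tested 165 were higher and 146 lower, and of the 412 bins of neither 5 were higher and 315 lower.

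The window at chr9:17000001-18000000, with no annotated protein-coding gene, had the largest difference, with an OE of 1.86 ± 0.735 in zygotes with Dam-lamin B1 (lowest 0.710, median 1.74, highest 3.31), against 0.487 ± 0.192 with Dam (lowest 0.133, median 0.447, highest 0.898). The difference was 1.48 ± 0.13 (limma, adjusted p = 2.0e-20). The window of Zic1 and Zic4, zinc-finger factors of the nervous system, at chr9:91000001-92000000 had 1.66 ± 0.585 and 0.567 ± 0.221 (difference 1.19 ± 0.12, limma adjusted p = 8.2e-16). The Htr1b window, where paternal signal was high, had 1.75 ± 0.522 with Dam-lamin B1, against 0.635 ± 0.282 with Dam (difference 1.19 ± 0.12, limma adjusted p = 1.6e-16). Of the 43 olfactory receptor bins 32 were higher and 1 lower, where 22.1% and 37.9% of all bins were. Many of these genes share a bin, and neighbouring bins are not independent.

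At the centromere end the windows from 4000001 to 7000000 were higher with Dam-lamin B1 by 0.38 to 0.60. The Gria4 window had 1.24 ± 0.668 with Dam-lamin B1, against 0.670 ± 0.217 with Dam. A far run of windows, from 113000001 to 124000000, was lower by 0.46 to 0.99. It includes the window of Itga9, an integrin subunit, with 0.521 ± 0.242 with Dam-lamin B1, against 1.26 ± 0.397 with Dam (difference -0.99 ± 0.11, limma adjusted p = 2.3e-14).

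The profiles of the pronuclei were compared with those of the stages across the 122 windows, as a description with the shared composition of the chromosome in every profile. Paternal pronuclei with no Kdm5b correlated at r = 0.779 with zygotes and maternal ones at 0.623, and the mean of both parents at 0.851. Paternal and maternal pronuclei with no Kdm5b correlated at 0.299 with each other on chromosome 9 and at 0.509 over all autosomes. With 2-cell embryos the correlation was -0.016 for paternal and 0.443 for maternal pronuclei. Paternal pronuclei with wild-type Kdm5b correlated at -0.336 with Dam-lamin B1 in zygotes and at 0.524 with Dam alone in zygotes, while maternal ones had 0.371 and -0.056.

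**Figure D5:**
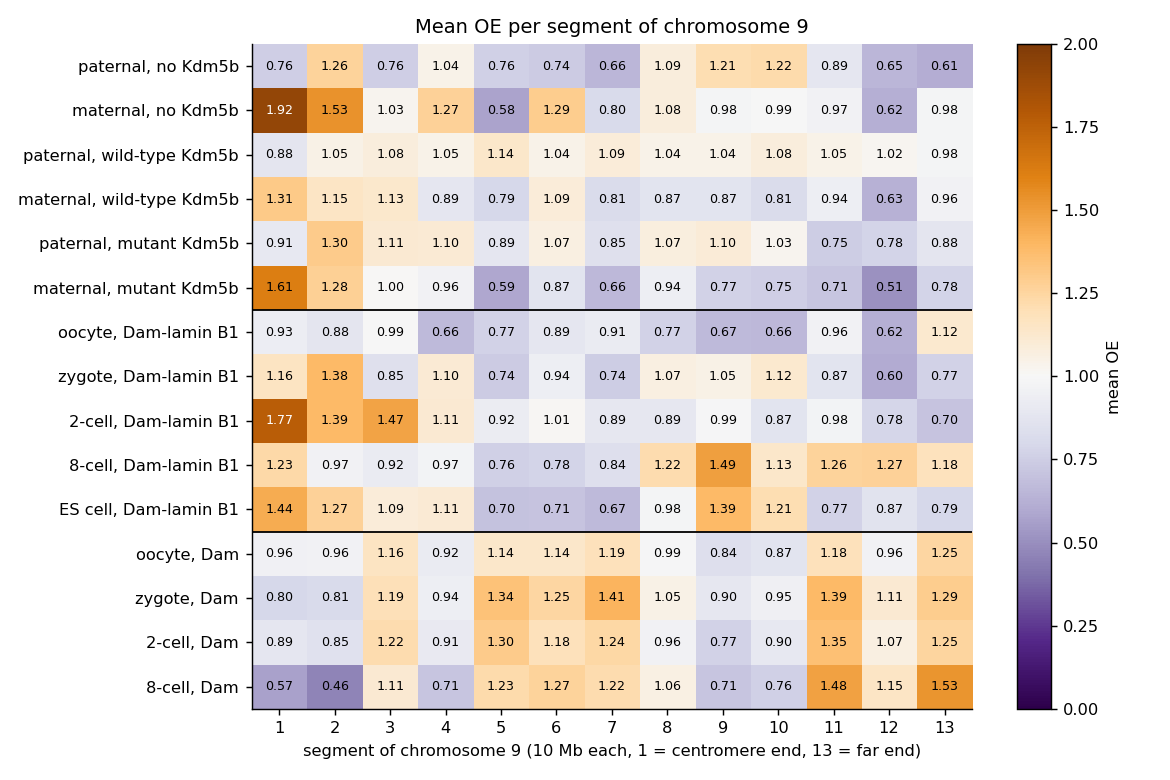
Mean OE (colour and printed value) in 13 segments of 10 Mb along chromosome 9 (x axis, 1 is the centromere end) in the 6 groups of pronuclei, the Dam-lamin B1 stages and the Dam stages (rows). Segment 1 is high in maternal pronuclei with no Kdm5b (1.92), in 2-cell embryos (1.77) and in ES cells (1.44), and low in paternal pronuclei with no Kdm5b (0.76).

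Over the stages, the centromere end up to position 10000000 had a mean OE of 0.931 ± 0.564 in oocytes, 1.16 ± 0.509 in zygotes, 1.77 ± 0.464 in cells of 2-cell embryos, 1.23 ± 0.350 in cells of 8-cell embryos and 1.44 ± 0.481 in ES cells (SD). The zygote value lay between the paternal 0.756 and the maternal 1.92 of separated pronuclei. With Dam alone the same end had 0.957 ± 0.133 in oocytes, 0.796 ± 0.158 in zygotes, 0.889 ± 0.256 in 2-cell and 0.568 ± 0.213 in 8-cell embryos. The 2-cell value was the highest of the stages, and neighbouring stages overlapped in their cells.

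The Htr1b window ran differently over the stages, with 0.414 ± 0.253 in oocytes, 1.75 ± 0.522 in zygotes, 0.829 ± 0.448 in 2-cell embryos, 1.03 ± 0.389 in 8-cell embryos and 1.28 ± 0.379 in ES cells. Its zygote value was close to the paternal 1.74. The Ccr3 window at the far end had 0.742 ± 0.629 in oocytes, 0.813 ± 0.584 in zygotes, 0.880 ± 0.427 in 2-cell embryos, 1.15 ± 0.526 in 8-cell embryos and 0.932 ± 0.303 in ES cells. The Arpp21 window had 0.180 ± 0.279 in oocytes, 0.541 ± 0.650 in zygotes, 0.468 ± 0.276 in 2-cell embryos, 0.889 ± 0.335 in 8-cell embryos and 1.29 ± 0.704 in ES cells. Oocytes were the lowest of the stages in all 3 windows, and ES cells were the highest of them only in the Arpp21 window.

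The contrast of LADs over the rest of chromosome 9 was -0.44 ± 0.35 in oocytes, 0.45 ± 0.25 in zygotes, 0.87 ± 0.48 in 2-cell embryos, 0.86 ± 0.50 in 8-cell embryos and 0.99 ± 0.44 in ES cells. Among the 19 autosomes chromosome 9 ranked 16 from the highest in oocytes, 17 in zygotes, 5 in 2-cell embryos, 7 in 8-cell embryos and 3 in ES cells. With Dam-lamin B1 the contrast was thus below 0 in oocytes and above 0 from the zygote on, and no test between stages was made. The Dam control stood below 0 throughout: -0.47 ± 0.22 (oocytes), -0.69 ± 0.18 (zygotes), -0.86 ± 0.38 (2-cell) and -1.83 ± 0.19 (8-cell). The oocyte means of the control and of Dam-lamin B1 were thus close. Whether the oocyte contrast differs from that of accessible DNA was not tested.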

How the data were processed

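Single-cell DamID of 512 cells in 100 kb bins was read from the authors' deposited table of OE ratios (observed over expected reads). Per the submitters' processing notes, cutadapt, BWA 0.7.12 and build mm10 were used. The deposited LAD lists of the ICM and the TE are intervals without a value. Chromosome 9 and the gene lists were chosen with earlier results of these data known.

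Bins were compared as log2(OE + 0.25) with limma 3.58.1 (R 4.3.3, eBayes with trend) over all autosomes, keeping bins non-zero in at least 10% of the cells compared. Windows of 1 Mb with at least 5 bins were compared in the same way. Calls needed a Benjamini-Hochberg adjusted p under 0.05, over 7 comparisons at 2 scales, and each group entered with no covariate. Named are the 5 highest and 5 lowest called windows and bins of a comparison, or the 3 most extreme where fewer than 3 were called, and genes of the lists. Gene names and promoters are from RefSeq, GRCm38.p6.

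Whole reads were recovered from the steps of the ratios for 23857 of 24022 bins (100% of their values whole within 0.02 reads), giving 23561 to 1090941 reads per cell (median 71763). They served only for depth and for the equal-reads alternative. A count test was not made, since expected reads differ by bin. The other alternatives were a pseudocount of 1, no filter, scaling to bins in neither LAD list, all 6 groups in 1 fit, the replicate block, and leaving out cells. The labels put 14 cells of the table in no group, and they were not used. The 2 most similar pronuclei correlated at r = 0.365 over bins, so none was counted as a duplicate. The p-values measure the spread between pronuclei or zygotes.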

Additional observations from a re-analysis of the deposited data

Results flagged for a closer look

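Of 32 sets of 4 to 10 cells checked with Dixon's 95% critical value, 6 held a cell far from the others. Chance gives about 1 in 20 for independent sets of normal values. The sets here share cells and OE cannot fall below 0, so nothing is read from the number of flags. In maternal pronuclei with no Kdm5b, 1 cell had an OE of 2.49 in the Htr1b window (the window from 81000001), where the median was 0.456. In the Arpp21 window (from 112000001) 1 maternal pronucleus of that set stood at 0.681, above a median of 0.204. In paternal pronuclei with mutant Kdm5b, the lowest mean OE over chromosome 9 was 0.810 and the lowest share of bins with an OE of 1 or more was 27.8%. In the same group 1 cell had 1.38 in the window from 8000001 (median 0.655), and 1 cell had 1.33 in the window from 58000001 (median 0.699). These values were kept in all results.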

How the results depend on the processing

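Of the values compared across alternatives, 93 summary values and 564 values of single windows and bins stayed on the same side. Of the rest, 26 summary values moved, 89 single values lost a call, 8 gained one and 0 reversed. The cause of these changes was not tested.

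At equal reads 0 bins were called for paternal minus maternal with no Kdm5b, 55 with wild-type and 0 with mutant Kdm5b (2 windows). The windows for wild-type minus mutant Kdm5b were then 19 in paternal and 0 in maternal pronuclei, and 405 bins were called for Dam-lamin B1 minus Dam in zygotes. Scaled to bins in neither LAD list, the parental contrast with mutant Kdm5b had 2 bins and 2 windows, wild-type minus mutant in paternal pronuclei 11 bins, and Dam-lamin B1 minus Dam 466 bins. With all 6 groups in 1 fit, the contrast with no Kdm5b had 32 windows and that with mutant Kdm5b 24 bins. In that fit wild-type minus mutant had 0 windows in paternal pronuclei, and 3 windows and 2 bins in maternal pronuclei. The contrast with mutant Kdm5b had 15 bins with a pseudocount of 1, 23 with no filter, and 2 bins and 7 windows without the 3 maternal pronuclei under a mean OE of 0.6, which were left out after seeing the data, as were the 3 pronuclei with over 50% of bins empty.

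The labels do not say whether same-numbered paternal and maternal pronuclei come from 1 egg. A correlation of deviations over 0.1 was found in 1 of 10 such pairs with no Kdm5b, 3 of 19 with wild-type and 0 of 6 with mutant Kdm5b. In these sets 2, 1 and 0 pronuclei correlated best with their own number. Pronuclei of 1 egg need not deviate together, so these values cannot decide whether the numbers mark pairs. With the replicate block, the parental contrast had 8 bins and 9 windows with no Kdm5b, and 0 bins and 3 windows with mutant Kdm5b. Wild-type minus mutant then had 0 windows in paternal and 0 in maternal pronuclei. The groups hold 6 to 19 pronuclei, so no pronucleus was left out in turn. The LAD contrast from the median OE gave no value for groups with cells whose median was 0.

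Up to 36.7% of chromosome 9 bins were empty on average in a group of pronuclei, and an empty bin at this depth is not a bin without contact.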
